A study of Mus musculus with 23 samples.

Results

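The livers of mice that had inhaled carbon black (CB) were compared with those of mice that had inhaled filtered air. The comparison used every array whose title begins with CB (8 arrays) or Air (8 arrays), 16 of the 23 arrays of the series, with 1 liver per array. The other arrays, from mice exposed to diesel exhaust particles, entered only the common estimate of the spread. The CB group inhaled 20 mg/m3 Printex for 90 minutes on each of 4 consecutive days, and the air group had filtered air on the same schedule. All mice were C57BL/6 females of 12 to 13 weeks, and whole liver was taken 90 minutes after the last exposure, as the labels have it. The study's methods give younger animals, a shorter interval and another RNA isolation kit, and the labels are followed here. The design text also lists Apoe knockout mice injected with particles, and aortas, none of which are among these arrays. Liver RNA carried the red dye Cy5 and a commercial pool of mouse RNA, the universal reference, carried the green dye Cy3 on every array, so dye and RNA source were never exchanged. The liver of a mouse holds hepatocytes beside Kupffer cells, sinusoidal endothelium, stellate cells and blood cells, and in such bulk RNA fewer cells of a type and less RNA per cell cannot be told apart.

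Carbon black is an industrial soot of nearly pure carbon with few adsorbed organic compounds. When particles inflame the lung, cytokines such as interleukin-1 and interleukin-6 can reach the liver, where interleukin-6 acts through its receptor, Janus kinases and the transcription factor STAT3. Hepatocytes then make acute phase proteins, among them serum amyloid A and P, fibrinogen, haptoglobin and the iron hormone hepcidin. The question of the comparison was whether inhaled CB was followed by such a hepatic response. Oxidative stress genes under NRF2, the aryl hydrocarbon receptor genes that organic combustion products switch on, and DNA damage genes are further readouts of particle exposure.

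The 18688 features with a listed gene, for 16887 different genes, were analysed. The median Cy5 signal of an array lay between 268 and 549 units on CB arrays and between 262 and 541.5 units on air arrays. The authors' flags called 20.5% to 40.0% of spots absent in Cy5 on CB arrays and 13.8% to 41.9% on air arrays. Between 72 and 291 spots per CB array, and between 59 and 271 per air array, stood at the Cy5 maximum of 65535, where the signal is capped and a larger amount of RNA can no longer be seen. A feature is said below to reach the maximum if it did so on any of the 23 arrays. Exposures ran in 3 rounds, with 1 CB and 2 air mice in the first, 6 CB and 4 air mice in the second, and 1 CB and 2 air mice in the last. The summed Cy5 level of 8 hepatocyte markers was 332600 to 405600 on CB arrays and 334000 to 389300 on air arrays. Of the 8 markers 6 reached the Cy5 maximum and 3 did so on every array, so the sum shows that the markers are present and is of little use for comparing groups.

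Below, a ratio is log2 of Cy5 over Cy3 after loess within each array, Cy5 alone and Cy3 alone are the log2 signals of each dye scaled between arrays, and differences are CB minus air (8 arrays each) from 1 limma model of all 23 arrays, in which the arrays of diesel-exposed mice share the estimate of the spread, with their standard errors (SE, after ±). No gene passed the threshold after adjustment, so "lower" and "higher" below rest on an unadjusted p under 0.05 and describe these arrays only. In the ratio 0 of 18688 features had an adjusted p under 0.05, and the smallest adjusted p (limma) was 0.0816, for Cyp4f14. With the 16 CB and air arrays fitted alone 0 features passed too and the smallest adjusted p was 0.444, with 1185 features at an unadjusted p under 0.05. A shrunken-variance F test of the kind the study used, run here on these ratios and features, also gave 0. The study's own Fs test, on its own normalised values and features, did report genes affected by CB at an adjusted p under 0.05. Its RT-PCR did not bear out Serpina3c, Apoe and Tmed3, reported for both particles, and it held that most calls may be false positives. In the limma fit of all 23 arrays an unadjusted p under 0.05 was found for 1110 features (5.94%), beside 934.4 that chance alone would give. Of these 477 (2.55%) were higher and 633 (3.39%) were lower after CB, so 57.03% were lower. With each array centred on its median in place of loess, the median of all features was shifted by -0.11 and 83.55% of the features at that p were lower. CB arrays lay wholly below air arrays for 9 features (0.0482%) and wholly above for 2 (0.0107%). The 9 were those of Sil1, a nucleotide exchange factor of the endoplasmic reticulum, Dhrs7, a short-chain dehydrogenase, Galt, the galactose enzyme, Akr1c19, an aldo-keto reductase, the cytochrome P450 Cyp2d9, Arfgef3, Kxd1, Aadacl2fm1 and the olfactory receptor Olfr1123. Aadacl2fm1 was absent in Cy5 on 6 CB and 5 air arrays, and Olfr1123 on 4 CB arrays and 1 air array. Of the 9 only Dhrs7 and Arfgef3 had an unadjusted p under 0.05 (limma) in the Cy5 signal alone as well. There Sil1 differed by 0.03 and Akr1c19, with 1 CB and 2 air arrays at the Cy5 maximum, by -0.07. The Cy5 mean of Sil1 on air arrays is pulled down by the lowest air array, at 11.45 against an air median of 14.37. All 8 CB arrays lay below that median in Cy5 alone. The 2 above were Atraid, which is at -0.03 under median centring, and the organic anion transporter Slco6b1, the second absent on all 16 arrays.

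A ratio can differ through its Cy5 or its Cy3 signal, and so each dye was also tested by itself. In Cy5 alone 0 features passed and 654 (3.5%) had an unadjusted p under 0.05, 298 higher (1.59%) and 356 lower (1.9%). With Cy5 centred on the median of each array 546 were higher and 282 lower, and in the second round alone 329 were higher and 651 lower. In Cy3 alone, where every array carried the same RNA, 0 passed and 604 (3.23%) had such a p, 374 higher (2%) and 230 lower (1.23%), and in the second round alone 411 were higher and 583 lower. The ratio and Cy5 alone share the same Cy5 spot, so their agreement is no independent check. Over all features they had the same sign for 70.23%, with r = 0.54 across features, which are not independent of each other. Among the features called in the ratio the same sign was found for 89.31% of those higher and 85.62% of those lower. Called in both measures with the same sign were 220 features, 94 higher (0.503%) and 126 lower (0.674%), which is 19.82% of the ratio calls and 33.64% of the Cy5 calls. A further 2 were called with opposite signs, 1 of them Apoa5, an activator of triglyceride clearance, at -0.41 in the ratio and 0.88 in Cy5 alone.

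**Figure D1:**
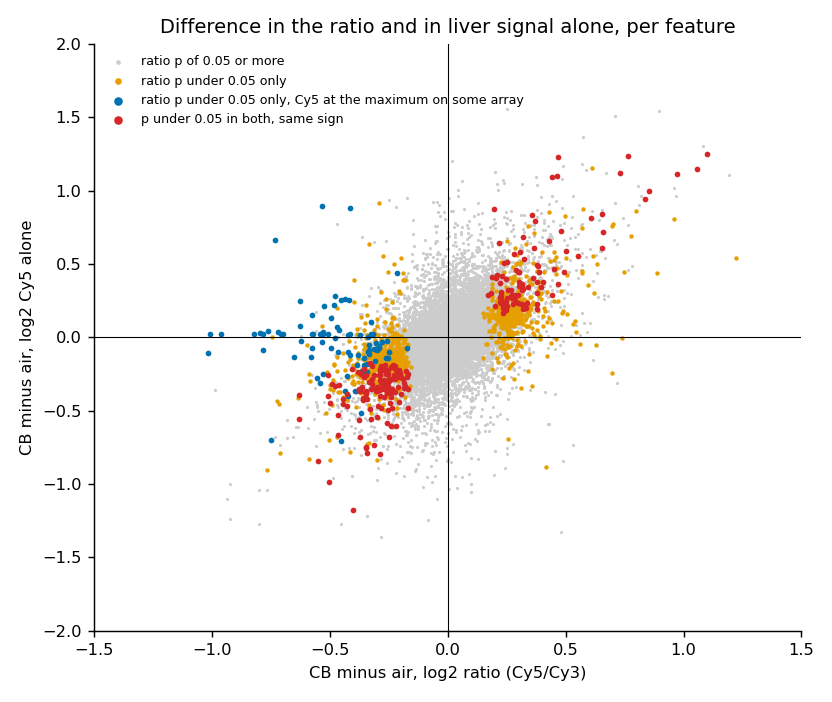
Difference CB minus air in the log2 ratio (horizontal axis) and in log2 Cy5 alone (vertical axis), 1 point per feature with a listed gene. The 220 features called in both with the same sign are red, and the blue points, called in the ratio alone and at the Cy5 maximum on some CB or air array, lie left of 0 and largely near the horizontal line.

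The features lower after CB were crowded among the brightest. The features were cut into 10 classes of brightness, and of the brightest class (1869 features) 229 (12.3%) were lower and 15 (0.803%) higher, while in the other classes the lower share reached at most 4.12%. The brightest class also held 436 of the 456 features that reached the Cy5 maximum, and its ratio and Cy5 alone had the same sign for 64.2%, with r = 0.27, against r = 0.66 in the dimmest class. Of the 515 features lower in the ratio and never at the maximum, 90.68% had the same sign in Cy5 alone and 22.72% were called there. For the 118 lower features that reached the maximum these shares were 63.56% and 7.627%, and Cy3 was higher after CB for 89.83% of them. Capped spots cannot differ in Cy5, and with Cy5 fixed a lower ratio means a higher Cy3. This contrast between the sets is therefore partly built in by the cap and says nothing of liver RNA. No feature called higher reached the maximum.

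**Figure D2:**
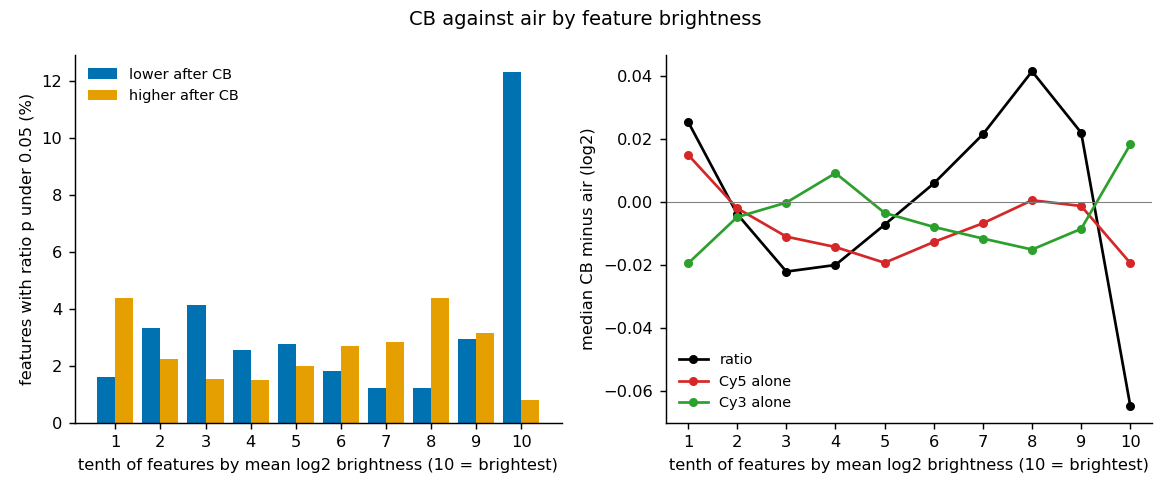
Left, share of features lower (blue) and higher (orange) after CB in each of the 10 classes of brightness (mean log2 signal of both dyes, 1 dimmest, 10 brightest). Right, median difference CB minus air in the ratio (black), Cy5 alone (red) and Cy3 alone (green), in which the brightest class has -0.06 in the ratio, -0.02 in Cy5 alone and 0.02 in Cy3 alone.

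The Cy5 maximum was reached on all 16 CB and air arrays by 35 features, so no difference in liver RNA can be given for them, and by 30 of these on every array of the series. The 30 include the products by which a liver is known: albumin (Alb), transferrin (Trf), haptoglobin (Hp), the fibrinogen beta chain (Fgb), the bikunin precursor Ambp, prothrombin (F2) and apolipoprotein E (Apoe). What can still differ at most of these spots is the Cy3 signal, and where its difference came from was not tested. Ppia, Rps18 and Rps16 stood at 65535 in Cy3 as well on every CB and air array, so neither dye can differ there. Ambp had Cy3 signals of 691.5, 1038.2 and 1434 (lowest, median and highest) on CB arrays, against 142, 576 and 795.5 on air arrays. For Trf they were 2798, 5495 and 7216 on CB arrays, against 332.5, 2943 and 4270 on air arrays. Both sets overlap, with the CB median above the highest air array. The Cy3 signal was higher after CB for 27 of the 30, 22 of them at an unadjusted p under 0.05. The rest were Ppia, Rps18 and Rps16, capped in both dyes, which also enter the mean that follows. As a mean over the 30, log2 Cy3 relative to the array's median was 3.995 ± 0.232 on CB arrays and 3.399 ± 0.436 on air arrays (SD, n = 8 each), a difference of 0.60 (two-sided exact permutation test, p = 0.00373, adjusted p = 0.0373 over 10 array measures). This mean was not among the array measures first planned. It sums up the Cy3 differences just given, so its p-value is no separate evidence for them. Within the second round alone the difference was 0.36 (exact permutation p = 0.0762). The part of this Cy3 signal in the lower ratios of bright liver genes was not tested.

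**Figure D3:**
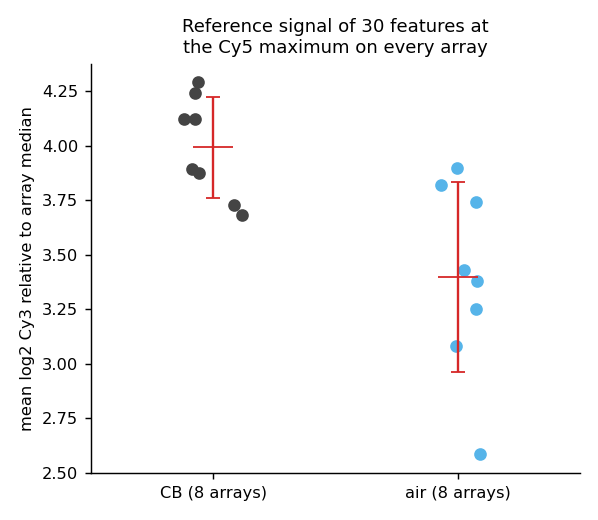
Mean log2 Cy3 signal of the 30 features at the Cy5 maximum on every array of the series, relative to the median of the array (vertical axis), 1 point per array, with mean and SD. CB arrays run between 3.68 and 4.29 and air arrays between 2.58 and 3.90.

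Genes were then grouped by function, with the brightest feature standing for each gene. Over all genes 432 (2.56%) were higher and 575 (3.4%) lower, with a median ratio difference of 0.00, and in Cy5 alone 266 (1.58%) were higher and 330 (1.95%) lower. In the brightest class, counted by genes (1762), 15 were higher and 214 (12.1%) lower, with a median of -0.06. The lists with the most negative medians were those of abundant secreted proteins and of hepatocyte metabolism, described in turn below, and their counts are to be read beside that share. Counts of the other lists are to be read beside the shares over all genes. Under median centring every list median named here lies lower, and those of DNA damage (-0.16), cell cycle (-0.23) and cytokine genes (-0.06) fall below 0. Counts move with it: 18 of 28 acute phase, 18 of 21 P450 family 2 and 26 of 34 urea cycle and amino acid genes were lower under that scaling, as were 13 of 36 cell cycle, 7 of 15 heat shock, 5 of 28 DNA damage and 3 of 11 aryl hydrocarbon receptor genes, lists with 0 calls under loess. Under that scaling 3673 of all 18688 features were lower, and these counts are to be read beside that number. In the second round alone, which holds fewer arrays, 4 acute phase, 4 P450 family 2, 5 coagulation, 3 lipoprotein and 6 urea cycle and amino acid genes were lower. Of all 18688 features 637 were lower in that round.

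**Figure D4:**
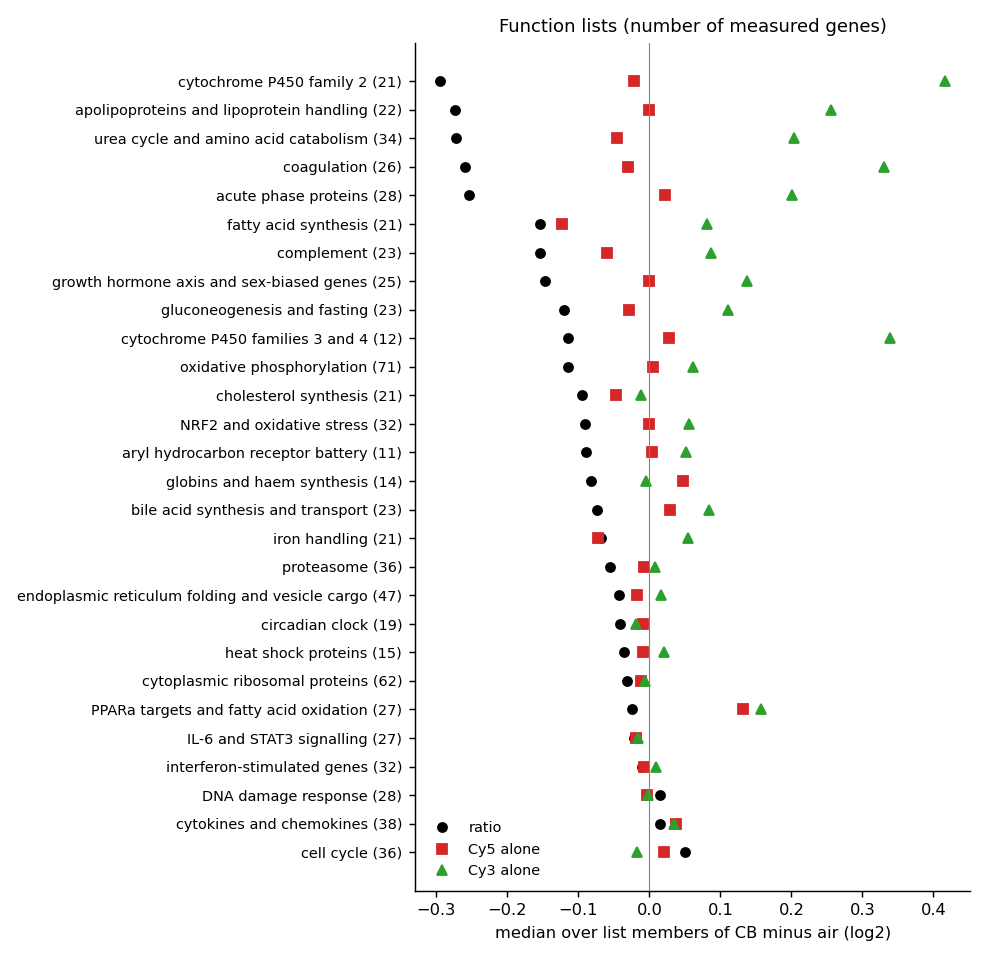
Median difference CB minus air over the measured genes of each function list (horizontal axis, log2) in the ratio (black circles), Cy5 alone (red squares) and Cy3 alone (green triangles). The lists at the top combine ratios of -0.25 to -0.29 with Cy5 alone between -0.05 and 0.02 and with higher Cy3. Members at the Cy5 maximum, where Cy5 cannot show a difference, are included in these medians.

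Of 28 acute phase genes 0 were higher and 9 lower in the ratio, at a median of -0.25. In Cy5 alone the median was 0.02 and 0 were called, while 9 were higher in Cy3. Of the 28 genes 14 reached the maximum, 6 of them on every array, where Cy5 cannot show a difference. This median and the lack of Cy5 calls are thus partly set by the cap. The 14 other genes had medians of -0.14 in the ratio, with 2 lower, and 0.01 in Cy5 alone. The 9 lower genes were Saa2 and Saa4 of the serum amyloid A family, orosomucoid (Orm1), the fibrinogen alpha chain (Fga), and 5 that sat at the maximum throughout (Hp, Fgb, Ambp, F2 and Trf). Without CB array 835436 the count of lower genes was 5, and Saa2 lost its unadjusted p under 0.05 with any 1 of 10 arrays left out. The positive acute phase genes of mouse on which the study was built gave these values. Serum amyloid P (Apcs) had ratios of 2.32, 2.63 and 3.51 (lowest, median and highest) on CB arrays, against 2.71, 2.99 and 3.93 on air arrays, a difference of -0.38 ± 0.22 (SE, adjusted p = 0.873). Saa1 had 3.22, 3.73 and 4.15 on CB arrays, against 3.34, 4.04 and 4.76 on air arrays (-0.31 ± 0.17, adjusted p = 0.873). Saa3, the form made also outside hepatocytes, had -1.02, -0.40 and 2.52 on CB arrays, against -1.18, 0.70 and 3.12 on air arrays (-0.65 ± 0.61, adjusted p = 0.917). All 3 overlapped between the groups, and Saa3 differed by more within a group than between them. Other settings gave Apcs an unadjusted p under 0.05, lower each time: median centring (-0.67), array set as a block (-0.55), the deposited ratios (-0.41), normexp (-0.47), the second round alone (-0.75) and leaving out CB array 445 (-0.49). Saa1 was so with median centring (-0.63), with array set as a block (-0.40), in the last round alone (-0.82) and without any 1 of 4 arrays, air arrays 53 and 54 and CB arrays 58 and 59 (-0.37 to -0.41). Differences in Cy5 alone were 0.00 for Apcs, -0.18 for Saa1 and -0.68 for Saa3, and none was called. Lipocalin 2 (Lcn2, 0.04), C-reactive protein (Crp, 0.05) and ceruloplasmin (Cp, -0.13) were also not called. With median centring Cp was lower (-0.42), and Crp differed by 1.55 in the first round alone, which holds 1 CB array.

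Upstream of these genes, 1 of 27 IL-6 and STAT3 pathway genes was higher and 0 were lower, at a median of -0.02. The 1 was the Janus kinase Tyk2 (0.28 ± 0.11, adjusted p = 0.827; 0.12 in Cy5 alone). Stat3 differed by -0.08 ± 0.11 (adjusted p = 0.945), the receptor chains Il6ra by -0.14 and Il6st by 0.14, and Socs3, the feedback inhibitor that STAT3 induces, by -0.29 ± 0.17 (adjusted p = 0.873), and was lower at an unadjusted p under 0.05 in other settings, among them median centring (-0.67), the second round alone (-0.46) and without CB array 445 (-0.42). Stat3 was lower with median centring (-0.38). Without air array 442 or 443 the count of higher genes was 3, and without air array 54 or CB array 445 the count of lower genes was 2.

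Hepcidin (Hamp), the peptide that closes the iron exporter ferroportin and is induced through STAT3, stood second to Cyp4f14 in the ratio. Its ratios were 2.73, 3.06 and 3.25 (lowest, median and highest) on CB arrays, against 3.18, 3.71 and 4.45 on air arrays, a difference of -0.65 ± 0.14 (SE, adjusted p = 0.298). Air arrays overlapped CB arrays only at their low end. Cy5 alone differed by -0.14 ± 0.13, with 1 CB and 4 air arrays at the maximum, and Cy3 alone by 0.57 ± 0.20. Of 21 iron genes 3 were lower, Hamp with the capped Trf and Hp, and the exporter itself (Slc40a1) differed by -0.08 ± 0.41.

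The promoters of Hamp and Fgb, as an iron hormone and an acute phase protein both under STAT3, are shown because each holds the palindromic core TTCNNNGAA to which STAT dimers bind. The windows are RefSeq sequence of build GRCm38.p6, 250 bases before to 50 bases after the start on the minus strand, with the core in capitals. Hamp lies at chr7:30943980-30944279, where the core starts 97 bases before the gene, and Fgb at chr3:83049814-83050113, where it starts 162 bases before.
Hamp: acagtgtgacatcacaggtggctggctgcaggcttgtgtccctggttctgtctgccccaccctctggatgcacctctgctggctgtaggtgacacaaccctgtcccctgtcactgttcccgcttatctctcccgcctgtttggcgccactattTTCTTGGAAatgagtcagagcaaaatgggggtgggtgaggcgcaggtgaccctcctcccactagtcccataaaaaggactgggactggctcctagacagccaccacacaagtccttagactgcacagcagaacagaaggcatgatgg
Fgb: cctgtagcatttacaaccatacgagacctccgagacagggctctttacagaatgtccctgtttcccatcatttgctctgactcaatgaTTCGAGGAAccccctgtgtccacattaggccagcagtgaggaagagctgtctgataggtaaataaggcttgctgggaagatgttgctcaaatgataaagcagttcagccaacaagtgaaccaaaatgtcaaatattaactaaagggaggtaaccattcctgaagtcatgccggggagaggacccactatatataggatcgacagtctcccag
The core, which reads alike on both strands, was found in 5 of the 23 acute phase genes with a matched promoter (21.7%), 5 of 23 coagulation genes and 1 of 11 iron genes, and in 2726 of all 32851 promoters (8.3%). A listed gene counted if any of its promoters held the core, while the last share counts single promoters, so the shares are not on the same base. A match of letters is a description and no measure of binding.

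Clotting factors and their inhibitors are hepatocyte products too. Of 26 coagulation genes 9 were lower (median -0.26), 17 reached the maximum, and of the genes that did not 0 were called. In Cy5 alone 0 were called (median -0.03), and in Cy3 alone 9 were higher. Plasminogen (Plg), the precursor of the enzyme that dissolves fibrin, had ratios of 5.17, 5.65 and 6.09 on CB arrays, against 5.59, 6.24 and 6.68 on air arrays (-0.55 ± 0.15, adjusted p = 0.621), and -0.28 ± 0.21 in Cy5 alone. Hepsin (Hpn), a serine protease of the hepatocyte surface, had 3.70, 4.48 and 4.86 on CB arrays, against 4.56, 5.08 and 5.31 on air arrays (-0.58 ± 0.15, adjusted p = 0.621), and -0.13 ± 0.11 in Cy5 alone. Both genes overlapped between groups. Antithrombin (Serpinc1) was lower by -0.57 ± 0.15 in the ratio and at 0.15 in Cy5 alone, or -0.11 there without air array 443. Of 23 complement genes 3 were lower (C4b, Cfb and C8b), and the beta chain of the terminal component C8 (C8b) was lower in Cy5 alone as well (-0.39 ± 0.12). Its ratio difference was -0.63, or -0.38 and not called without CB array 47, the lowest. The count of lower complement genes was 1 without CB array 47 or 835436 or air array 49, 53 or 443, and 5 without CB array 445, and 8 with array set as a block. With that block 779 of all 18688 features were lower.

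Lipoprotein genes gave 7 lower of 22 (median -0.27 in the ratio and 0.00 in Cy5 alone): Apoa2, Apoc1 and Apoe, all capped throughout, with Apoa5, Apoc2, Apom and Lcat, the enzyme that esterifies cholesterol in HDL. Of the 22, 11 reached the maximum, and the 11 others had medians of -0.07 in the ratio and 0.01 in Cy5 alone. Lcat, the only one of the 7 that did not reach the maximum, differed by -0.52 ± 0.22 (adjusted p = 0.827) in the ratio and -0.51 ± 0.48 in Cy5 alone, and by -0.28 in the ratio without CB array 835436, the lowest. Cholesterol synthesis had 3 lower of 21, farnesyl diphosphate synthase (Fdps, -0.72 ± 0.29, adjusted p = 0.827), the sterol reductase Tm7sf2 (-0.39 ± 0.12) and the sterol isomerase Ebp, capped on all 16 arrays. Fatty acid synthesis had 2 lower of 21, and its list median was negative in both measures (-0.15 in the ratio, -0.12 in Cy5 alone). Over the 17 members never at the maximum the medians were -0.11 in the ratio and -0.03 in Cy5 alone. Thrsp (Spot 14), which rises with lipogenesis, had ratios of 2.68, 3.06 and 3.54 on CB arrays, against 3.22, 3.91 and 4.92 on air arrays, a difference of -0.72 ± 0.22 (adjusted p = 0.621) with overlapping groups, and -0.46 ± 0.64 in Cy5 alone. The second was the phosphatidate phosphatase Lpin1 (-0.37 ± 0.13, adjusted p = 0.72). PPARa targets had 2 lower of 27 at a median of -0.02, the receptor Ppara itself (-0.35 ± 0.14) and the peroxisomal enzyme Ehhadh (-0.25 ± 0.12), and 0 lower without CB array 835436.

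Cytochrome P450 genes, whose enzymes oxidise steroids, fatty acids and foreign compounds, were often called lower in the ratio, while in Cy5 alone the 1 call in families 2 to 4 was Cyp4f16 (-0.33), which was not called in the ratio. In family 2, 8 of 21 were lower (median -0.29), or 13 with array set as a block. In Cy5 alone 0 were called (median -0.02) and in Cy3 alone 12 were higher (median 0.42). Of the 21, 13 reached the maximum, which limits what Cy5 can show. The 8 others had medians of -0.26 in the ratio, with 2 lower, and -0.19 in Cy5 alone. In families 3 and 4, 4 of 12 were lower (Cyp3a11, Cyp3a16, Cyp4f14 and Cyp4f15). Cyp4f14, a leukotriene B4 hydroxylase, had ratios of 3.33, 3.90 and 4.32 on CB arrays, against 4.11, 4.69 and 4.88 on air arrays (-0.75 ± 0.13, adjusted p = 0.0816), with 1 CB array reaching into the air range. Its Cy5 alone differed by 0.00 ± 0.34, and by -0.25 without air array 54, the lowest in Cy5 at 12.79 against an air median of 14.88. Cyp2d9 had 3.01, 3.48 and 3.66 on CB arrays, against 3.70, 4.07 and 7.07 on air arrays, which did not overlap (-1.02 ± 0.32, adjusted p = 0.634). It stood at the Cy5 maximum on 2 CB and 4 air arrays, and differed by -0.10 ± 0.21 in Cy5 alone and 0.96 ± 0.42 in Cy3 alone. Without air array 50, the highest, the ratio difference was -0.64. Cyp2c40 had the smallest p of all features in Cy3 alone, 0.91 ± 0.16 (adjusted p = 0.147), against 0.08 in Cy5 alone and -0.63 ± 0.18 in the ratio. Cyp3a16, with 6.09, 6.96 and 7.30 on CB arrays, against 7.16, 7.42 and 7.66 on air arrays, differed by -0.54 in the ratio and by -0.31 in Cy5 alone.

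The urea cycle and amino acid catabolism, which dispose of nitrogen in hepatocytes, held 3 genes lower in both measures. Of 34 genes 11 were lower in the ratio (median -0.27), and these 3, Got1, Uroc1 and Ftcd, in Cy5 alone too, Uroc1 no longer so with any 1 of 10 arrays left out. Got1, the cytosolic aspartate aminotransferase, had ratios of 2.37, 2.82 and 3.17 on CB arrays, against 3.02, 3.20 and 3.67 on air arrays, a difference of -0.48 ± 0.11 (adjusted p = 0.447). In Cy5 alone it had 15.12, 15.51 and 15.97 on CB arrays, against 15.55, 15.85 and 16 on air arrays (-0.33 ± 0.12), with 2 CB and 5 air arrays at the maximum. The groups overlapped in both measures. Urocanate hydratase (Uroc1) and formiminotransferase cyclodeaminase (Ftcd) act in turn in the breakdown of histidine. Uroc1 had 4.05, 4.37 and 4.82 on CB arrays, against 4.45, 4.71 and 5.26 on air arrays (-0.38 ± 0.12, adjusted p = 0.698; -0.24 ± 0.11 in Cy5 alone). Ftcd had 4.52, 5.23 and 5.86 on CB arrays, against 5.21, 5.65 and 6.21 on air arrays (-0.43 ± 0.18, adjusted p = 0.827; -0.47 ± 0.15 in Cy5 alone), and was not called in the ratio without CB array 835436 or air array 53. Argininosuccinate lyase (Asl), of the urea cycle, was lower by -0.47 ± 0.13 (adjusted p = 0.621) and had -0.23 ± 0.12 in Cy5 alone. The first enzyme of that cycle, Cps1, had a ratio difference of 0.01 and Otc, the next, one of -0.23, and neither was called. Cps1 differed by -1.31 in the last round alone, which holds 1 CB array. Other settings gave Otc an unadjusted p under 0.05, lower with median centring (-0.54), with array set as a block (-0.40) and without CB array 445 (-0.38), and higher in the first round alone (0.77). Glycine N-methyltransferase (Gnmt) showed the other kind of lower gene, with -0.72 ± 0.23 in the ratio (adjusted p = 0.673), 0.04 in Cy5 alone and 0.86 ± 0.22 in Cy3 alone, at the Cy5 maximum on all 8 CB and 7 air arrays.

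Antioxidant genes were called in both directions. Of 32 NRF2 and oxidative stress genes 2 were higher, glutathione reductase (Gsr, 0.19 ± 0.08, adjusted p = 0.827) and glutaredoxin (Glrx, 0.23 ± 0.11, adjusted p = 0.838), and 8 were lower, at a list median of -0.09. Under median centring Gsr (-0.12) and Glrx (-0.07) had the opposite sign, and without CB array 47 neither was called. The lower ones included thioredoxin reductase (Txnrd1, -0.21 ± 0.09, -0.05 in the second round alone and not called with any 1 of 7 arrays left out), the NRF2 inhibitor Keap1 (-0.18 ± 0.07), mitochondrial superoxide dismutase (Sod2, -0.17 ± 0.07) and the glutathione transferase Gstt1 (-0.47 ± 0.14, adjusted p = 0.621). Park7 and Gclm were lower in both measures. Park7 (DJ-1), a redox-sensitive chaperone, had ratios of 0.40, 0.50 and 0.88 on CB arrays, against 0.68, 0.87 and 1.10 on air arrays (-0.36 ± 0.09, adjusted p = 0.621), and in Cy5 alone 14.97, 15.30 and 15.79 on CB arrays, against 15.43, 15.67 and 15.94 on air arrays (-0.34 ± 0.11). The groups overlapped through 2 CB arrays, and Cy3 alone differed by 0.00, with 1 CB and 3 air arrays at the Cy5 maximum. Gclm, the modifier subunit of the enzyme that limits glutathione synthesis, had 1.04, 1.25 and 1.88 on CB arrays, against 1.43, 1.62 and 1.98 on air arrays (-0.29 ± 0.11, adjusted p = 0.804; -0.25 ± 0.12 in Cy5 alone), and its Cy5 call was lost with any 1 of 8 arrays left out. Haem oxygenase (Hmox1), the usual sentinel of oxidative stress, had a difference of 0.00 ± 0.14 (adjusted p = 1), with -1.26, -0.86 and -0.53 on CB arrays, against -1.34, -0.91 and -0.21 on air arrays. With median centring Hmox1 was lower (-0.35). The catalytic subunit Gclc (-0.08) and the quinone reductase Nqo1 (-0.09) were not called.

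Of the 11 genes of the aryl hydrocarbon receptor battery 0 were called. Cyp1a1, its most inducible member, was at 0.01 ± 0.11 (adjusted p = 0.995) and absent on 7 CB and 6 air arrays, and Cyp1a2 was at -0.20 ± 0.18 (adjusted p = 0.914). Cyp1a2 was called at -0.34 with array set as a block and at -0.50 with median centring. DNA damage genes likewise gave 0 calls of 28, with Cdkn1a (p21) at -0.09 ± 0.22 and Ogg1, which excises oxidised guanine, at 0.03 ± 0.12. Cell cycle (36 genes) and heat shock genes (15 genes) also gave 0 calls in the ratio under loess. Among 32 interferon-stimulated genes Oasl1 and Zc3hav1 were higher (6.25%) and Igtp and Bst2 lower (6.25%), beside 2.56% higher and 3.4% lower over all genes. Oasl1, which restrains the interferon response in mouse, was called in Cy5 alone too (0.25 ± 0.11 in the ratio and 0.22 ± 0.10 in Cy5 alone), and lost its call in the ratio with any 1 of 6 arrays left out.

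Of 38 cytokine and chemokine genes 3 were called, at a list median of 0.02. Interleukin-1 beta (Il1b) and Tgfb1 were higher (5.26%) and the chemokine Ccl9 was lower (2.63%). Over all genes 2.56% were higher and 3.4% lower, so these few calls do not set the list apart. Without air array 443 the count of higher genes was 5 and without CB array 59 it was 4. Il1b, the main inflammatory product of activated macrophages, had ratios of 0.59, 1.11 and 1.83 on CB arrays, against -0.39, 0.53 and 1.83 on air arrays, a difference of 0.65 ± 0.25 (adjusted p = 0.816). In Cy5 alone it had 8.28, 9.14 and 9.80 on CB arrays, against 7.42, 8.53 and 9.45 on air arrays (0.61 ± 0.24), where the call was lost without air array 50. All 8 CB arrays lay above the air median in the ratio and the groups overlapped widely. By exposure round the difference was 1.41 in the first, 0.66 in the second and -0.16 in the last. Ccl9 had 1.63, 1.82 and 2.005 on CB arrays, against 1.69, 2.15 and 2.42 on air arrays (-0.29 ± 0.14, adjusted p = 0.838; -0.36 ± 0.17 in Cy5 alone), and was not called with any 1 of 12 arrays left out. Tgfb1 was higher by 0.23 ± 0.09 in the ratio and at -0.03 in Cy5 alone. Tnf differed by 0.02 ± 0.10, Il6 by 0.32 ± 0.34 and Ccl2 by 0.08 ± 0.13, and none of these was called. Beside these values, 0 of 10 Kupffer cell, 11 neutrophil and 13 lymphocyte markers were called. The summed Kupffer cell level was 34800 to 59270 on CB arrays and 37040 to 67710 on air arrays, and that of neutrophil markers, of which 7 were absent on more than 8 arrays and Camp on all 16, was 2449 to 4555 on CB arrays and 2531 to 3619 on air arrays.

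The 126 features lower in both the ratio and Cy5 alone were those called in the liver dye as well. Of these 20 were absent on more than 8 of the 16 arrays and 7 were at the maximum on some CB or air array. They included, beside Got1, Park7, Uroc1, Ftcd and Gclm, further enzymes and carriers of hepatocytes. Dhrs7 had ratios of 0.96, 1.27 and 1.41 on CB arrays, against 1.51, 1.70 and 1.97 on air arrays, which did not overlap (-0.44 ± 0.14, adjusted p = 0.637; -0.45 ± 0.16 in Cy5 alone). The bile salt export pump Abcb11 had 4.79, 5.29 and 5.33 on CB arrays, against 5.09, 5.67 and 6.04 on air arrays (-0.46 ± 0.15, adjusted p = 0.698; -0.33 ± 0.11 in Cy5 alone), with 2 CB and 7 air arrays at the maximum, so that air is cut short in Cy5. The first enzyme of bile acid synthesis, Cyp7a1, differed by -0.05 ± 0.25 and was not called. The peroxisomal oxidase of pipecolic acid and sarcosine (Pipox) had 4.35, 4.96 and 5.48 on CB arrays, against 4.85, 5.45 and 5.98 on air arrays (-0.51 ± 0.19, adjusted p = 0.794; -0.40 ± 0.11 in Cy5 alone). Lysosomal acid lipase (Lipa), which frees cholesterol and fatty acids inside the lysosome, had 0.52, 0.98 and 1.46 on CB arrays, against 1.05, 1.31 and 1.55 on air arrays (-0.35 ± 0.11, adjusted p = 0.637; -0.37 ± 0.14 in Cy5 alone). Mst1, the macrophage-stimulating protein that hepatocytes secrete, had 3.37, 4.05 and 4.32 on CB arrays, against 4.03, 4.49 and 5.004 on air arrays (-0.51 ± 0.14, adjusted p = 0.621; -0.25 ± 0.10 in Cy5 alone). Abcb11, Pipox, Lipa and Mst1 overlapped between groups, each with the CB median below the air median.

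Further genes lower in both measures were Spop, Psmc1, Znhit1 and Hnrnpk. Spop, a substrate adaptor of a cullin 3 ubiquitin ligase, had ratios of -0.06, 0.04 and 0.30 on CB arrays, against 0.07, 0.38 and 0.60 on air arrays (-0.33 ± 0.09, adjusted p = 0.621; -0.49 ± 0.12 in Cy5 alone). Psmc1, an ATPase of the proteasome's regulatory particle, had -0.53, -0.26 and 0.04 on CB arrays, against -0.21, 0.01 and 0.28 on air arrays (-0.30 ± 0.10, adjusted p = 0.68; -0.34 ± 0.14 in Cy5 alone, a call lost without air array 54 or CB array 445). It was the only one of 36 proteasome genes lower in both, and the list median was -0.06. Znhit1, a subunit of the SRCAP chromatin remodeller, had -0.24, -0.05 and 0.35 on CB arrays, against 0.13, 0.44 and 0.56 on air arrays (-0.35 ± 0.11, adjusted p = 0.675; -0.37 ± 0.09 in Cy5 alone). The RNA-binding protein Hnrnpk had -1.76, -1.46 and -0.72 on CB arrays, against -1.32, -0.78 and -0.56 on air arrays (-0.46 ± 0.16, adjusted p = 0.72; -0.67 ± 0.30 in Cy5 alone). Each of the 4 overlapped between groups, and the Cy5 call of Hnrnpk was lost with any 1 of 5 arrays left out.

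Of the 94 features higher in both measures 28 were absent on more than 8 of the 16 arrays and 0 were at the maximum. Plpbp, which handles the vitamin B6 cofactor pyridoxal phosphate, had ratios of 0.80, 1.499 and 1.94 on CB arrays, against 0.68, 0.87 and 1.34 on air arrays (0.55 ± 0.15, adjusted p = 0.621; 0.56 ± 0.18 in Cy5 alone). Pex3, which inserts proteins into the membrane of new peroxisomes, had 0.35, 0.76 and 1.06 on CB arrays, against -0.16, 0.40 and 0.69 on air arrays (0.43 ± 0.12, adjusted p = 0.621; 0.65 ± 0.23 in Cy5 alone, or 0.41 without air array 443). Both overlapped at the lower CB values. Bbox1, the last enzyme of carnitine synthesis, had 4.45, 5.001 and 5.43 on CB arrays, against 2.85, 4.30 and 5.45 on air arrays (0.73 ± 0.26, adjusted p = 0.72; 1.12 ± 0.27 in Cy5 alone), so that the CB arrays lay together at the upper end of a wide air range. Clec2l, a C-type lectin-like receptor, had 0.87, 2.14 and 3.02 on CB arrays, against 0.23, 0.81 and 2.75 on air arrays (1.06 ± 0.39, adjusted p = 0.796; 1.15 ± 0.34 in Cy5 alone). Dmbt1, a mucosal scavenger receptor, had -0.28, 0.43 and 4.13 on CB arrays, against -0.15, 0.10 and 0.31 on air arrays (1.10 ± 0.41, adjusted p = 0.804), and without CB array 58, the highest, the difference was 0.68 in the ratio and 0.72 in Cy5 alone.

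Copa, Stt3b and Bcap29 were higher in both measures. Copa, a subunit of the coat of vesicles that return to the endoplasmic reticulum, had ratios of 0.57, 0.91 and 1.38 on CB arrays, against -0.13, 0.45 and 0.84 on air arrays (0.44 ± 0.13, adjusted p = 0.621; 1.09 ± 0.45 in Cy5 alone, a call lost without CB array 48 or air array 835432 or 835433). Stt3b, a catalytic subunit of the complex that attaches N-linked sugars, had -0.20, 0.00 and 0.36 on CB arrays, against -0.47, -0.21 and -0.11 on air arrays (0.29 ± 0.09, adjusted p = 0.634; 0.46 ± 0.14 in Cy5 alone). Bcap29, a membrane protein of the endoplasmic reticulum, had -1.23, -1.11 and -0.93 on CB arrays, against -1.72, -1.48 and -0.89 on air arrays (0.32 ± 0.10, adjusted p = 0.698; 0.69 in Cy5 alone, or 0.45 without air array 54). All 3 overlapped, and under median centring Stt3b (-0.04) and Bcap29 (-0.02) had the opposite sign. In the list of 47 folding and vesicle genes 1 was higher (Copa) and 4 were lower, the chaperones Hspa5 and Hsp90b1, Sil1 and the cargo receptor Tmed3, or 2 without air array 53 or 835432 or CB array 835052 or 446. Tmed3, with -2.04, -1.88 and -1.67 on CB arrays, against -1.71, -1.43 and -1.34 on air arrays, differed by -0.40 ± 0.08 (adjusted p = 0.298) in the ratio and by -0.30 ± 0.16 in Cy5 alone. The translation factor Eif4e (0.31 in the ratio, 0.58 in Cy5 alone) and the apoptosis initiator Casp8 (0.25 and 0.51, or -0.07 in the ratio under median centring) were also higher in both, Casp8 without its Cy5 call when air array 50 or 442 was left out.

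**Figure D5:**
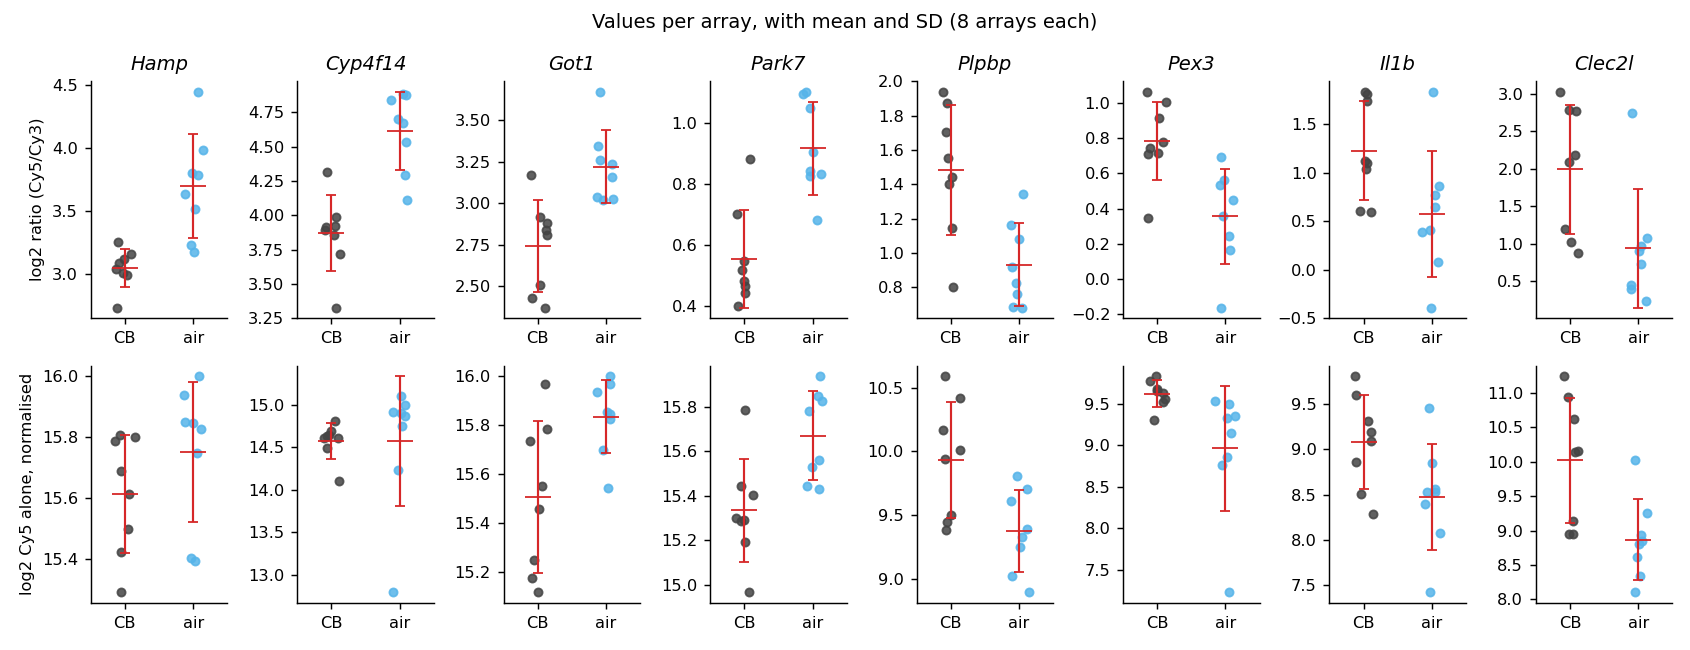
Log2 ratio (top row) and normalised log2 Cy5 alone (bottom row) of 8 genes on each CB and air array, with mean and SD, on an axis of its own for each gene. Got1 and Park7 are lower and Plpbp, Pex3, Il1b and Clec2l higher after CB in both rows, while for Cyp4f14 the lower ratios stand above Cy5 values that differ by 0.00.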

How the data were processed

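Liver RNA (Cy5) and universal mouse reference RNA (Cy3) were hybridised together on 2-colour Agilent oligonucleotide arrays, 1 per mouse. The authors scanned them with ScanArray Express and quantified the spots in ImaGene; the deposited intensity of each dye is linear with no background subtracted. Per the labels, the authors' own lowess step in R 2.4.1 gave the log2 values in the same files, and the deposited flags, another column per dye, mark spots as absent against a negative control threshold.

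Here log2 ratios came from the intensities by within-array loess, and the log2 signal of each dye alone was quantile normalised between arrays, separately per dye (limma 3.58.1, R 4.3.3). All 23 arrays were fitted in 1 model (lmFit, eBayes), with Benjamini-Hochberg adjustment at 0.05. Features without a listed gene (3887 of 22575) were left out, since control spots among them could not be told. No signal filter was set. Array measures were compared by exact permutation tests (scipy 1.17.1). The fitting code was run on simulated data with known changes, made by shuffling residuals within each feature. Such data hold no array effects or exposure rounds, so they are no test of the calls given here. The labels number each mouse but say nothing of cages or separate extractions, and the number of arrays limits the precision. The limma p-values set each mean difference against the spread between arrays within the CB, air and diesel groups.

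The members and gene lists were chosen with earlier results of these data known. Genes named are the anchors of each list and up to 3 members with the smallest p, the 10 smallest p in each direction without a capped spot, the 10 smallest p called in both measures, the 5 largest differences in each direction, and genes the study names. Named after their values were seen were the further members given for contrast (such as Cps1, Otc, Nqo1, Keap1, Txnrd1, Sod2, Gsr, Glrx, Il6, Ccl2, Lcat, Ftcd, Eif4e and Casp8) and the non-overlapping genes. Alternatives were the deposited ratios, median centring, normexp, an Fs test modelled on the study's, filters, blocks, single rounds, array weights and leaving out each array.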

Additional observations from a re-analysis of the deposited data

Results flagged for a closer look

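Of 226 groups of 8 arrays checked for the genes named here, 20 held 1 array whose gap to its nearest neighbour was a large part of the group's range; chance gives about 1 in 20 such groups. Air array 443 was far from the other air arrays in the ratio of Trf (7.81, others 3.45 to 4.57), Ambp (9.12, others 6.07 to 6.89), Cyp2c40 (6.96, others 5.82 to 6.35) and, at the low end, Igfbp3 (0.21, others 0.62 to 0.96). Air array 442 was high in Akr1c19 (5.51, others 4.84 to 5.08) and Apoc2 (6.49, others 3.44 to 4.45). Air array 50 was high in Cyp2d9 (7.07, others 3.70 to 4.96), air array 49 in Clec2l (2.75, others 0.23 to 1.07), and air array 835432 was low in Unc45a (-0.84, others -0.56 to -0.33). Among CB arrays, 835436 was low in the antithrombin gene Serpinc1 (3.93, others 4.27 to 4.53), in Mst1 (3.37, others 3.88 to 4.32), in Akr1c19 (3.75, others 4.52 to 4.80) and in Lcat (1.81, others 3.26 to 3.89), and high in Bst2 (0.70, others 0.17 to 0.34). CB array 47 was low in C8b (1.82, others 3.26 to 4.37) and CB array 446 in Aadacl2fm1 (-0.67, others -0.37 to -0.12). CB array 48 was high in Spop (0.30, others -0.06 to 0.09) and low in Dhrs7 (0.96, others 1.21 to 1.41) and D630003M21Rik (-0.28, others 0.07 to 0.30). CB array 445 was high in the antiviral gene Zc3hav1 (-0.24, others -0.94 to -0.70).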

How the results depend on the processing

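The count at an adjusted p under 0.05 (limma) was 0 in the ratio, and 285 with median centring, 50 in the last round alone (its 1 CB array assumed to vary like the other groups), 1 with array weights and 1 at a threshold of 0.1; leaving out each array gave 0 to 1 (1 without CB array 59 or air array 442). At an unadjusted p the 1110 features were 4396 with median centring (908 to 1255 with an array left out). Those higher (477) were 723 with median centring and 735 with array weights (376 to 567), and those lower (633) were 3673 with median centring and 383 in the first round alone (526 to 716). Without 1 array, Cy5 alone gave 0 at the adjusted threshold and 569 to 787 at the unadjusted one, and Cy3 alone 0 to 1 (1 without air array 54) and 522 to 702; Cy3 alone gave 994 in the second round and 948 with array set as a block. The share of equal signs (70.23%) was 64.51% with Cy5 centred on the median, 67.25% in the second round, 69.4% and 67.77% with round or set as a block, 68.22% with the deposited ratios and 68.96% to 71.86% without 1 array, and the 220 features called in both were 181 to 259 without 1 array and 181 to 292 in the other settings, 292 with array set as a block. The Cy3 difference of 0.60 was 0.36 in the second round and 0.48 to 0.67 without 1 array. Signs turned in the first round alone for Cyp3a16 (0.0114), Lipa (0.0116), Gclm (0.287), Hnrnpk (0.0161), Copa (-0.00056), Nvl (-0.0258), Igtp (0.0477), Hbb-b2 (0.0296) and Rpl13a (0.259), in the last for Il1b (-0.156) and Bst2 (0.213), and with median centring for Stt3b (-0.0373), Bcap29 (-0.0232), Casp8 (-0.0719), Atraid (-0.0265), Glrx (-0.0716) and Gsr (-0.118); the causes were not tested. Of 103 genes called in the ratio and checked, 25 lost their unadjusted p under 0.05 with some 1 array left out (most, 15, without CB array 835436 and 15 without air array 443), 10 with the deposited ratios, 15 with median centring, and 48, 62 and 89 in the second, last and first round alone, which hold fewer arrays. The difference of 8 genes moved by over 1.5 times with 1 array left out: Cyp2d9, Dmbt1, C8b and Lcat, given above, Trf (-0.53) and Ambp (-0.63) without air array 443, Apoc2 (-0.45) without air array 442 and Per3 (-0.28) without air array 50. Of 24 genes given as not called, 13 had such a p in some setting, 6 of them with 1 array left out. No paired analysis was possible because the array numbers are not shared between groups. Signals at the Cy5 maximum limit what can be seen of the most abundant liver RNAs.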

Other observations

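Genes of mitochondrial respiration, of the growth hormone axis and of blood were also counted. Of 71 oxidative phosphorylation genes 10 were lower in the ratio and 0 higher (median -0.11), and in Cy5 alone 0 were lower and 1 higher (Sdhd, 0.25), at a median of 0.00. The 10 lower genes included cytochrome c1 (Cyc1, -0.28 ± 0.09, adjusted p = 0.708; -0.12 in Cy5 alone) and the complex I subunit Ndufb7 (-0.33 ± 0.09, adjusted p = 0.621; -0.05 in Cy5 alone), and 39 of the 71 reached the Cy5 maximum. Cytoplasmic ribosomal protein genes, of which 43 of 62 reached the maximum, had 2 lower in the ratio (Rpl13a and Rpl23) and a median of -0.03. Of 25 growth hormone axis and sex-biased genes 8 were lower (median -0.15), among them the IGF carrier Igfbp3 (-0.42 ± 0.12, adjusted p = 0.621; -0.17 in Cy5 alone) and the female-biased Cyp2a4, capped on all 16 arrays. Igfbp1, another IGF carrier, was not called in the ratio (-0.04) and was higher in Cy5 alone (0.46 ± 0.17).

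Both globin genes called, Hba-a1 (-0.54) and Hbb-b2 (-0.50), were lower in the ratio and not in Cy5 alone (0.02 and 0.13), Hba-a1 at the maximum on all 16 arrays. Among 19 clock genes the period gene Per3 was lower in the ratio (-0.51 ± 0.22, adjusted p = 0.836), with -0.28 and no call without air array 50, and 0 others were called.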
